A study of Mus musculus with 6 samples.

Results

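The genes described here are 10 antioxidant and glutathione genes, taken by gene name from the 51826 genes in the count and FPKM tables of irradiated mouse cortex. They are the NRF2 targets *Hmox1*, *Nqo1*, *Gclc*, *Gclm* and *Slc7a11*, and the oxidant-removing enzymes *Sod1*, *Sod2*, *Cat*, *Gpx1* and *Gpx4*. The genes were taken by name and not by a threshold on a measured value, though the list was drawn up with earlier results of these data known. All 10 were found, and all 10 passed the filter on low counts that left 18345 genes.

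The study asked what asparagine endopeptidase (AEP), a lysosomal cysteine protease encoded by *Lgmn*, does in radiation-induced brain injury. Bulk polyA RNA was sequenced from 3 cortices of Lgmn+/+-IR mice, which carry wildtype *Lgmn*, and 3 cortices of Lgmn-/--IR mice, the AEP knockouts. All 6 were male Balb/c mice, 6 to 8 weeks old by the study's methods, and every one of them received 10 Gy of X-rays to the whole brain and was sampled on day 3. Mice without irradiation were not analysed here, and every comparison is between genotypes after irradiation and says nothing of the response to irradiation itself. The Lgmn-/- mice are *Lgmn* flox/flox: Cre+ animals derived from an ES cell clone, and the Cre driver is not named in the sources used here. The design names 3 mice of each genotype, without litters, cages or dates, and p-values measure only the spread between these libraries.

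Cells are exposed to superoxide and hydrogen peroxide from respiration and, after irradiation, from the radiolysis of water. Superoxide dismutases turn superoxide into hydrogen peroxide, and catalase and the glutathione peroxidases remove the peroxide, the latter at the cost of glutathione. NRF2, a transcription factor held at a low level by KEAP1, binds antioxidant response elements (AREs) and switches on genes for cystine import, glutathione synthesis and detoxification.

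Total counts per library were 41874462 to 46829441. Values are given as CPM, that is counts scaled to library size by TMM, in the order of replicates 1, 2 and 3, and as FPKM, which is also per transcript length, where levels of different genes are compared. The log2 fold change is Lgmn-/--IR against Lgmn+/+-IR, and an adjusted p under 0.05 from edgeR's quasi-likelihood test was the threshold for a call. *Lgmn* (chromosome 12 of GRCm38, 102394084 to 102439813) had 130, 129 and 127 CPM in Lgmn+/+-IR against 83.4, 70.4 and 93.6 CPM in Lgmn-/--IR, which edgeR fitted as −0.64 on the log2 scale (standard error 0.12, adjusted p = 0.0315). The libraries of the 2 genotypes did not overlap, and the count covers the whole gene rather than the floxed part alone. The call was lost in 6 of the 18 alternative analyses: with the replicate number as a block (adjusted p = 0.113), without the filter on low counts (0.0632), and without Lgmn+/+-IR replicate 1 (0.103), 2 (0.131) or 3 (0.104) or Lgmn-/--IR replicate 1 (0.0949).

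Of the 10 genes, 0 passed the threshold, where 3.33% of all genes tested did (611 of 18345, edgeR). At an unadjusted p under 0.05, 2 of the 10 differed, *Slc7a11* and *Cat*, both higher in Lgmn-/--IR, where 18.6% of all genes tested did. DESeq2 called these 2 genes, and limma-voom on the counts and limma on the FPKM called 0. In the same 2 genes every Lgmn-/--IR library lay above every Lgmn+/+-IR library, an arrangement that 12.4% of all genes showed. In the other 8 the genotypes overlapped. Counted in either direction, 25.7% of all genes (4710 of 18345) had no overlap. The log2 fold changes of the 10 genes had a median of 0.06, with 6 above 0 and 4 below, and the median over all genes tested was −0.01. A change over 1 on the log2 scale, in either direction and whatever its p, was seen in 1 of the 10 (*Slc7a11*), and in 5.83% of all genes. The count of reads in these bulk samples cannot tell fewer cells that express a gene from less RNA per cell.

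**Figure D1:**
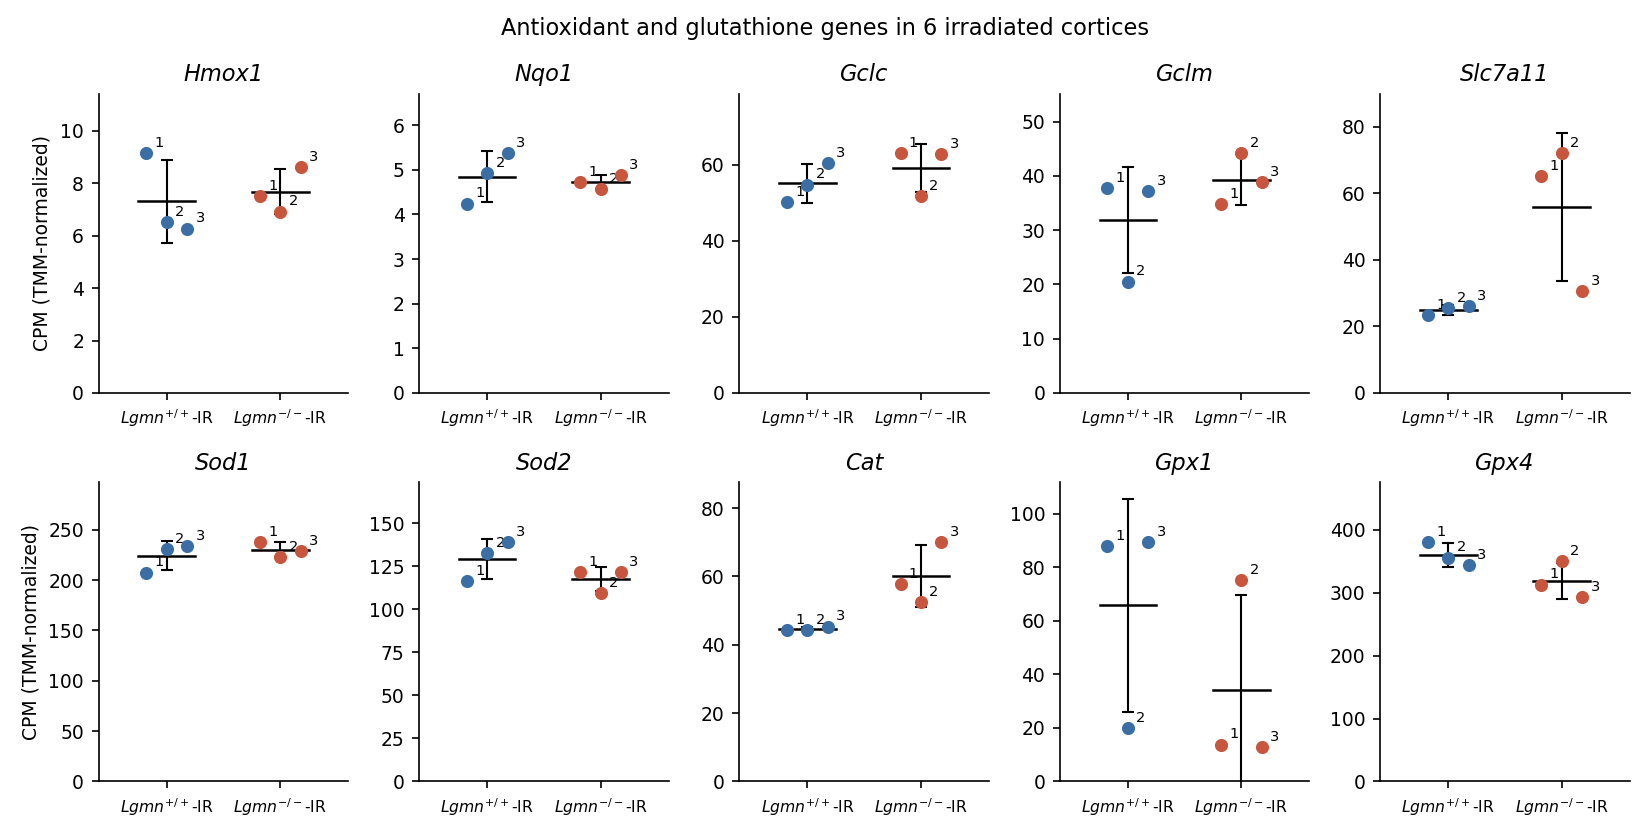
TMM-normalized CPM (y axis, linear from 0) of the 10 genes in the 6 libraries, with Lgmn+/+-IR in blue and Lgmn-/--IR in red. Points are libraries with their replicate numbers, and bars are the mean ± SD of 3 libraries (the lower SD bar of *Gpx1* in Lgmn-/--IR ends below 0 and is cut at the axis). *Slc7a11* and *Cat* are the 2 genes without overlap between genotypes, and *Gpx1* spans 12.9 to 89.4 CPM.

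*Slc7a11* (chromosome 3 of GRCm38, 49892526 to 50443614) encodes the cystine-importing subunit of the cystine/glutamate exchanger, which supplies the cysteine for glutathione. It had 23.3, 25.5 and 26.2 CPM in Lgmn+/+-IR against 65.1, 72.0 and 30.6 CPM in Lgmn-/--IR. Replicates 1 and 2 of Lgmn-/--IR were far above the rest, and replicate 3 was just above the highest Lgmn+/+-IR library. The means were 25 ± 1.52 and 55.9 ± 22.2 CPM (SD, n = 3 each), with a log2 fold change of 1.16 (standard error 0.29, 95% interval 0.47 to 1.85, unadjusted p = 0.0052, adjusted p = 0.0906 from edgeR). On the linear scale this is a fold between 1.39 and 3.61.

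The FPKM of *Slc7a11* was 2.27, 2.67 and 2.54 in Lgmn+/+-IR against 6.19, 7.16 and 2.81 in Lgmn-/--IR, so the order of the libraries by genotype held in the second unit. Without Lgmn-/--IR replicate 3, *Slc7a11* passed the threshold with 1.46 on the log2 scale (adjusted p = 0.0033), and it also did so with DESeq2 (adjusted p = 0.0015). Over all 18 alternatives the log2 fold change stayed between 0.80 and 1.46 and the adjusted p between 0.0015 and 0.245. Its longest annotated transcript shares 585 bases at 92.5% identity with *Tuba1b*, a tubulin gene, the first of 15 genes with a match of at least 200 bases at 90% identity or more, so reads in that stretch are uncertain.

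The 3 genes whose profile over the 6 libraries lay closest to that of *Slc7a11*, by root mean square distance of log2 CPM after centring and among 15018 genes with a mean over 1 CPM, were *Fam46c* (0.171), *Isg20* (0.177) and *Ppp3cb* (0.202). *Ppp3cb*, a catalytic subunit of calcineurin, had 117, 115 and 141 CPM in Lgmn+/+-IR against 265, 252 and 123 CPM in Lgmn-/--IR. Here Lgmn-/--IR replicate 3 lay within the Lgmn+/+-IR range, and the other two replicates of that genotype stood above it.

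*Cat* (chromosome 2, 103453849 to 103485160) encodes catalase, the peroxisomal enzyme that splits hydrogen peroxide into water and oxygen. It had 44.2, 44.3 and 45.3 CPM in Lgmn+/+-IR against 57.8, 52.5 and 70.1 CPM in Lgmn-/--IR. The Lgmn+/+-IR libraries were nearly level, all Lgmn-/--IR libraries were above them, and replicate 3 was the highest, unlike in *Slc7a11*. The means were 44.6 ± 0.619 and 60.1 ± 9.06 CPM (SD, n = 3 each), with a log2 fold change of 0.43 (standard error 0.12, 95% interval 0.14 to 0.72, unadjusted p = 0.0092, adjusted p = 0.121 from edgeR), or a fold between 1.10 and 1.64.

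In FPKM *Cat* was 15.5, 15.5 and 15.6 in Lgmn+/+-IR against 19.8, 18.4 and 22.4 in Lgmn-/--IR, with no overlap either. DESeq2 was the only one of the 18 alternatives that called *Cat* (adjusted p = 0.0408), and over all of them the log2 fold change was 0.31 to 0.52 and the adjusted p 0.0408 to 0.314. The nearest profiles were those of *Snrpa*, *Sf3b4* and *Lysmd2* at distances of 0.0199 to 0.0396. The first 2 encode proteins of the splicing machinery, and *Snrpa* had 59.3, 57.9 and 59.4 CPM in Lgmn+/+-IR against 76.6, 71.3 and 93.8 CPM in Lgmn-/--IR.

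Red cell genes differed between the genotypes more than any of the 10 genes, and red cells are rich in catalase. Of the 8 red cell markers listed, 7 were found and 5 tested, and all 5 were called higher in Lgmn-/--IR. Their summed level was 13.1, 7.59 and 15.9 CPM in Lgmn+/+-IR against 2273, 1730 and 234 CPM in Lgmn-/--IR, a 116-fold ratio of means. Of these, *Hba-a1* rose by 7.33, *Hba-a2* by 6.59, *Hbb-bs* by 6.69, *Hbb-bt* by 6.66 and *Alas2* by 5.6 on the log2 scale (adjusted p between 0.00877 and 0.0235, edgeR). *Slc4a1* (33, 56 and 2 counts in Lgmn-/--IR and 0 in every library of the other genotype) was too low to test.

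Within Lgmn-/--IR the red cell sum was lowest in replicate 3, as was *Slc7a11*, while *Cat* was highest in that replicate. Leaving the hemoglobin genes out before normalization gave 1.16 for *Slc7a11* and 0.43 for *Cat* on the log2 scale, as before. That step changes only the scaling, and any counts of *Slc7a11* and *Cat* from red cells stay in. The part of red cells in either difference was not tested.

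**Figure D2:**
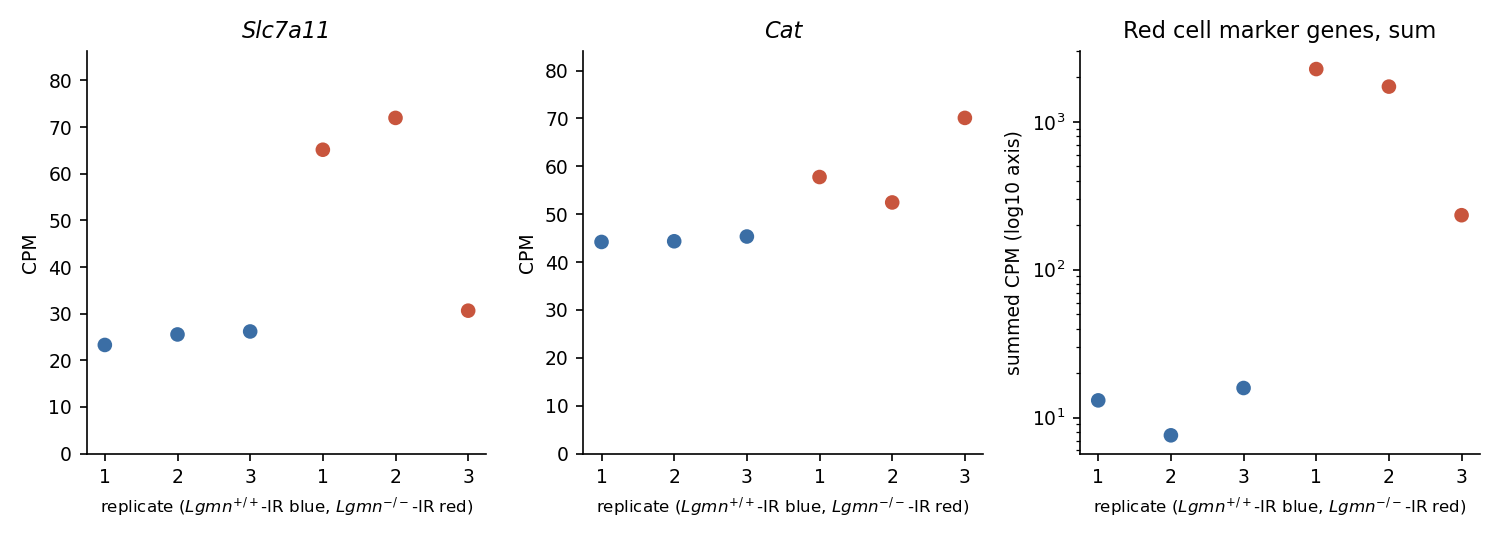
CPM of *Slc7a11* and *Cat* (y axes, linear from 0) and the summed CPM of 7 red cell genes (y axis, log10 scale) in each library, with Lgmn+/+-IR in blue and Lgmn-/--IR in red. Lgmn-/--IR replicate 3 has the lowest *Slc7a11* (30.6 CPM) and the lowest red cell sum (234 CPM) of its genotype but the highest *Cat* (70.1 CPM).

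The other 2 NRF2 targets outside glutathione synthesis were low and overlapped between genotypes. *Hmox1* (chromosome 8, 75093621 to 75100589), which encodes heme oxygenase-1, the enzyme that breaks down heme, had 9.14, 6.52 and 6.27 CPM in Lgmn+/+-IR against 7.52, 6.91 and 8.61 CPM in Lgmn-/--IR. The highest and the lowest of the 6 values were both in Lgmn+/+-IR. The log2 fold change was 0.07 (standard error 0.19, 95% interval −0.36 to 0.51, adjusted p = 0.865 from edgeR), which leaves room for a fold from 0.777 to 1.42.

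*Nqo1* (chromosome 8, 107388225 to 107403206), a quinone reductase, had 4.24, 4.93 and 5.37 CPM in Lgmn+/+-IR against 4.73, 4.57 and 4.88 CPM in Lgmn-/--IR. All 3 Lgmn-/--IR libraries fell inside the Lgmn+/+-IR range. The log2 fold change was −0.04 (standard error 0.15, 95% interval −0.38 to 0.31, adjusted p = 0.917 from edgeR).

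*Gclc* and *Gclm* encode the catalytic and the modifier subunit of glutamate-cysteine ligase, the rate-limiting enzyme of glutathione synthesis. *Gclc* (chromosome 9, 77754535 to 77794485) had 50.3, 54.7 and 60.4 CPM in Lgmn+/+-IR against 63.0, 51.8 and 62.8 CPM in Lgmn-/--IR. The genotypes overlapped, with a log2 fold change of 0.10 (standard error 0.12, 95% interval −0.18 to 0.38, adjusted p = 0.693 from edgeR).

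*Gclm* had 37.8, 20.5 and 37.2 CPM in Lgmn+/+-IR against 34.8, 44.2 and 38.9 CPM in Lgmn-/--IR. Lgmn+/+-IR replicate 2 was well below the other 5 libraries. The log2 fold change was 0.30 (standard error 0.23, 95% interval −0.25 to 0.85, adjusted p = 0.533 from edgeR), and 0.07 without that library.

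The 2 deposited units disagreed on *Gclm* in direction. Its FPKM was 7.07, 8.39 and 8.35 in Lgmn+/+-IR against 6.12, 7.31 and 6.44 in Lgmn-/--IR, so the library with the fewest counts had the highest FPKM. On the log2(FPKM + 1) scale the difference was −0.23 (adjusted p = 0.347, limma), against 0.30 from the counts. The length in kb that would turn the counts into the FPKM was 5.43, 2.50 and 4.46 in Lgmn+/+-IR against 5.64, 6.24 and 5.66 in Lgmn-/--IR, a 2.49-fold span. Over 18084 genes the median span was 1.06-fold, and 425 genes (2.35%) exceeded 2-fold.

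*Gclm* lies on chromosome 3 of GRCm38 from 122245557 to 122270732 on the plus strand and overlaps *Gm17494* on the minus strand, which had 267 to 374 counts per library, and the pseudogene *Gm6061*, which had 0 to 2. Whether the counting used the strand is not given in the sources used here, so reads from the overlapping genes cannot be told apart. The part of this overlap in the gap between the units was not tested.

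**Figure D3:**
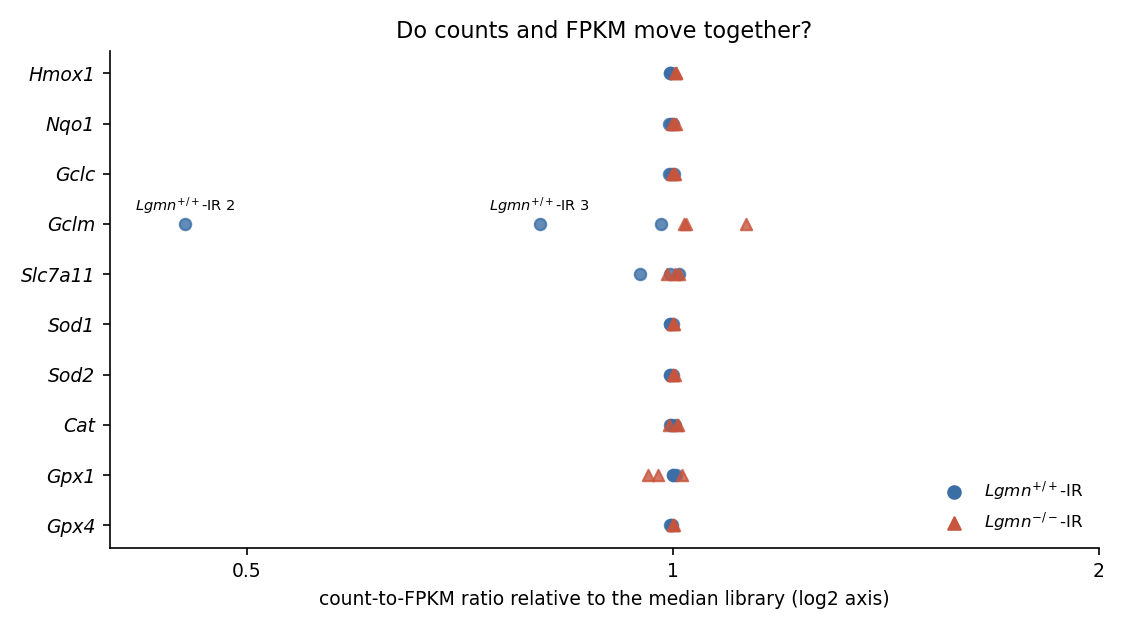
Ratio of count to FPKM in each library, corrected for library total and divided by the median of the 6 libraries (x axis, log2 scale), for the 10 genes. Circles are Lgmn+/+-IR and triangles Lgmn-/--IR. *Gclm* is spread over 2.49-fold, with Lgmn+/+-IR replicate 2 lowest, and the other 9 genes stay within 1.07-fold.

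*Gclm* and *Sod1* are the members whose RefSeq promoter windows hold the ARE core, so a stretch of each is shown. Windows from 250 bases before to 50 bases after the start site (RefSeq, GRCm38.p6) were found for 8 of the 10 genes, not for *Hmox1* and *Gclc*. The letters TGACNNNGC were searched on both strands, and 4038 of all 32544 windows (12.4%) held them, so 2 genes with a match is a description and not a site. Both matches are on the minus strand, 134 and 56 bases before the start site, and are in capitals here as read on the plus strand.
Gclm, chr3:122245363-122245491, plus strand: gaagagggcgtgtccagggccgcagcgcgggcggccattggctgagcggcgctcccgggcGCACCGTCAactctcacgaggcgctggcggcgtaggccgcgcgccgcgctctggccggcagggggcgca
Sod1, chr16:90220646-90220761, plus strand: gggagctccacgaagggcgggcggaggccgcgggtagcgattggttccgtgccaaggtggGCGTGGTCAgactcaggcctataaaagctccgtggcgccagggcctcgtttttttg
Neither gene was called, and their log2 fold changes were 0.30 and 0.04.

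*Sod1* and *Sod2* encode the cytosolic and the mitochondrial superoxide dismutase. *Sod1* (chromosome 16, 90220754 to 90226329) had 207, 231 and 234 CPM in Lgmn+/+-IR against 238, 223 and 229 CPM in Lgmn-/--IR. The 6 libraries lay within 1.15-fold of each other, and the within-genotype SD of log2 CPM was 0.0743, with a smaller one in only 7.81% of genes tested. The log2 fold change was 0.04 (standard error 0.08, 95% interval −0.16 to 0.24, adjusted p = 0.843 from edgeR).

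*Sod1* shares 650 bases with *Scaf4* on the other strand and resembles the pseudogene *Gm8566* over 465 bases at 97.9% identity, so part of its reads are uncertain. *Sod2* (chromosome 17, 13006846 to 13040063) had 116, 132 and 139 CPM in Lgmn+/+-IR against 121, 109 and 122 CPM in Lgmn-/--IR. The genotypes overlapped, with a log2 fold change of −0.14 (standard error 0.10, 95% interval −0.37 to 0.10, adjusted p = 0.506 from edgeR). The longest annotated transcript of *Sod2* matches 11 other genes, at most over 210 bases (*2810403D21Rik*, 90.5% identity), so reads in such stretches are uncertain.

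*Gpx1* and *Gpx4* are selenoenzymes that use glutathione. GPX1 reduces hydrogen peroxide in the cytosol, and GPX4 reduces lipid peroxides in membranes, the step that holds back ferroptosis. *Gpx4* (chromosome 10, 80047166 to 80056439) had 381, 356 and 344 CPM in Lgmn+/+-IR against 313, 350 and 293 CPM in Lgmn-/--IR. Only Lgmn-/--IR replicate 2 reached the Lgmn+/+-IR range, and the log2 fold change was −0.18 (standard error 0.10, 95% interval −0.40 to 0.05, adjusted p = 0.375 from edgeR). Reads of *Gpx4* are uncertain where it resembles the copy *Gpx4-ps2*, which matches 733 bases at 99.7% identity.

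*Gpx1* (chromosome 9, 108338903 to 108340343) was the most uneven of the 10 genes, and the split did not follow genotype. It had 3749, 848 and 4067 counts in Lgmn+/+-IR against 611, 3493 and 565 counts in Lgmn-/--IR, or 87.9, 19.8 and 89.4 CPM and 13.8, 75.2 and 12.9 CPM. Lgmn+/+-IR replicates 1 and 3 and Lgmn-/--IR replicate 2 were high, the other 3 libraries were low, and the highest was 6.95-fold above the lowest.

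The means of *Gpx1* were 65.7 ± 39.8 CPM and 34.0 ± 35.8 CPM (SD, n = 3 each), and the log2 fold change of −0.95 had a standard error of 0.81 and a 95% interval from −2.86 to 0.96 (adjusted p = 0.578 from edgeR). The value moved to −2.30 without Lgmn-/--IR replicate 2 (adjusted p = 0.126) and to −0.56 without Lgmn-/--IR replicate 3, and *Gpx1* was called in none of the 18 alternatives. The within-genotype SD of its log2 CPM was 1.33, larger than in 99.6% of genes tested, against a median of 0.182 over all genes and 0.148 over the 10.

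The same split appeared in the FPKM of *Gpx1*, which was 76.1, 17.2 and 76.3 in Lgmn+/+-IR against 11.9, 65.3 and 10.7 in Lgmn-/--IR. No other gene overlaps it in the annotation, and no other annotated gene matched its longest transcript over 200 bases at 90% identity. Of 10154 genes with a mean over 10 CPM, 76 (0.748%) likewise differed over 3-fold within each genotype.

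The profile nearest to that of *Gpx1* was that of *Cyth1* on chromosome 11, which encodes a guanine nucleotide exchange factor of ARF proteins. *Cyth1* had 86.6, 28.5 and 72.2 CPM in Lgmn+/+-IR against 25.7, 86.5 and 26.1 CPM in Lgmn-/--IR, with the same 3 libraries high, at a distance of 0.466. The next nearest, *A730035I17Rik* and *Gm20708*, were at 0.630 and 0.706. No label distinguishes the 3 high libraries from the 3 low ones.

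**Figure D4:**
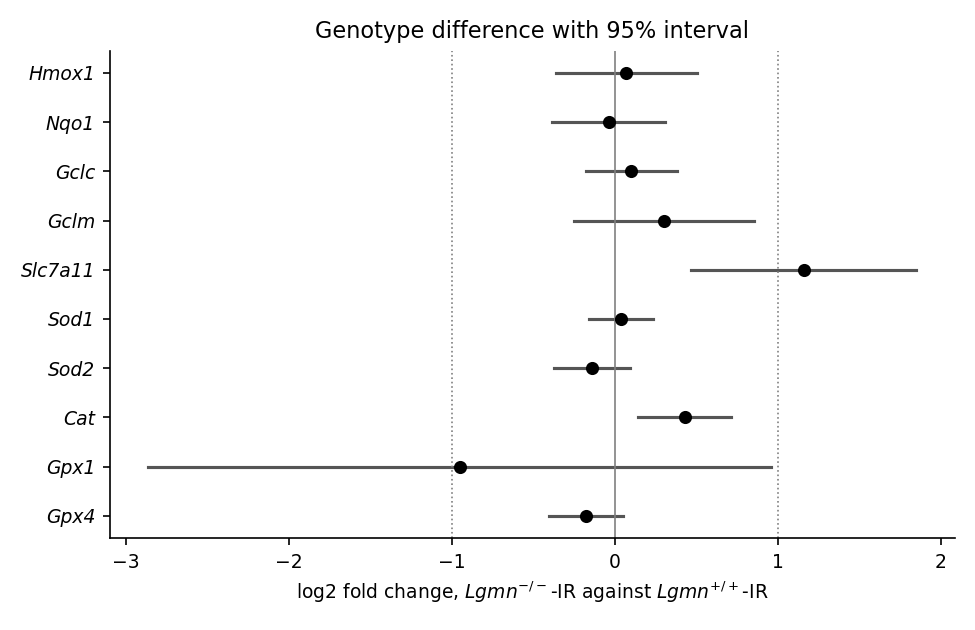
Log2 fold change of Lgmn-/--IR against Lgmn+/+-IR (x axis) for the 10 genes, as points with 95% intervals from edgeR (n = 3 libraries each). Dotted lines mark a log2 fold change of 1 in each direction. The intervals of *Slc7a11* (0.47 to 1.85) and *Cat* (0.14 to 0.72) lie above 0, before adjustment for the number of genes, and that of *Gpx1* (−2.86 to 0.96) is the widest.

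By level per transcript length, *Gpx4* (mean 316 FPKM over the 6 libraries) and *Sod1* (311 FPKM) were the highest of the 10 genes, and their ranges over libraries overlapped. *Gpx1* (42.9 FPKM) followed and overlapped with *Sod2* (28.4 FPKM), whose range lay inside that of *Gpx1*. *Sod2* stood apart from *Cat* (17.9 FPKM), which overlapped with *Gclc* (14.7 FPKM). *Gclc*, *Gclm* (7.28 FPKM) and *Hmox1* (4.21 FPKM) stood apart from one another in that order. *Hmox1* overlapped with *Slc7a11* (3.94 FPKM) and the latter with *Nqo1* (2.71 FPKM), the lowest.

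*Gpx4* and *Sod1* made up 39.9% to 45.1% and 36.2% to 45.9% of the summed FPKM of the 10 genes in each library. The FPKM of *Gpx4* exceeded that of *Gpx1* 4.72-fold, 19.7-fold and 4.2-fold in Lgmn+/+-IR against 24.2-fold, 5.13-fold and 23.8-fold in Lgmn-/--IR. This ratio followed the split of *Gpx1* and not the genotype.

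The rest of the pathway was read from a list of 78 other genes, of which all were found and 74 tested. Of these, 0 were called higher and 2 lower in Lgmn-/--IR, *Glo1* and *Sod3*, where 1.65% of all genes were called higher and 1.68% lower. Both genes also passed the fold threshold of the study's methods, an absolute log2 fold change over 1, and so counted among the 2.06% of all genes called with that added threshold. At an unadjusted p under 0.05, 3 were higher and 13 lower, where 9.26% and 9.34% of all genes were. Without overlap between genotypes 6 were higher and 14 lower, where 12.4% and 13.3% of all genes were. The median log2 fold change of the 74 was −0.03. The 4 genes below the filter were *Gpx2*, *Cybb*, *Nox4* and *Duox1*.

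*Glo1* encodes glyoxalase I, which uses glutathione to detoxify methylglyoxal. It had 146, 190 and 138 CPM in Lgmn+/+-IR against 55.7, 72.6 and 51.4 CPM in Lgmn-/--IR. No library overlapped, and *Glo1* was 2.64-fold lower in Lgmn-/--IR by the ratio of means, or −1.40 on the log2 scale in edgeR (standard error 0.18, adjusted p = 0.00832). It was called in all 18 alternatives, with log2 fold changes of −1.56 to −1.24. *Glo1* (chromosome 17, 30584936 to 30626871, minus strand) shares 2518 bases with *Dnah8* on the other strand, which had 1.76, 2.29 and 1.96 CPM in Lgmn+/+-IR against 0.315, 0.582 and 0.684 CPM in Lgmn-/--IR.

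*Sod3* (chromosome 5, 52363791 to 52371418) encodes the extracellular superoxide dismutase. It had 15.6, 15.7 and 13.9 CPM in Lgmn+/+-IR against 7.61, 5.11 and 7.34 CPM in Lgmn-/--IR. The genotypes did not overlap, and *Sod3* was 2.25-fold lower in Lgmn-/--IR by the ratio of means, or −1.17 on the log2 scale in edgeR (standard error 0.17, adjusted p = 0.0162). The call was lost with the replicate number as a block (adjusted p = 0.0815) and without Lgmn+/+-IR replicate 1 (0.0576), 2 (0.0821) or 3 (0.0519) or Lgmn-/--IR replicate 3 (0.0527). Its intracellular relatives *Sod1* and *Sod2* did not pass the test, and a difference between them and *Sod3* was not itself tested.

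**Figure D5:**
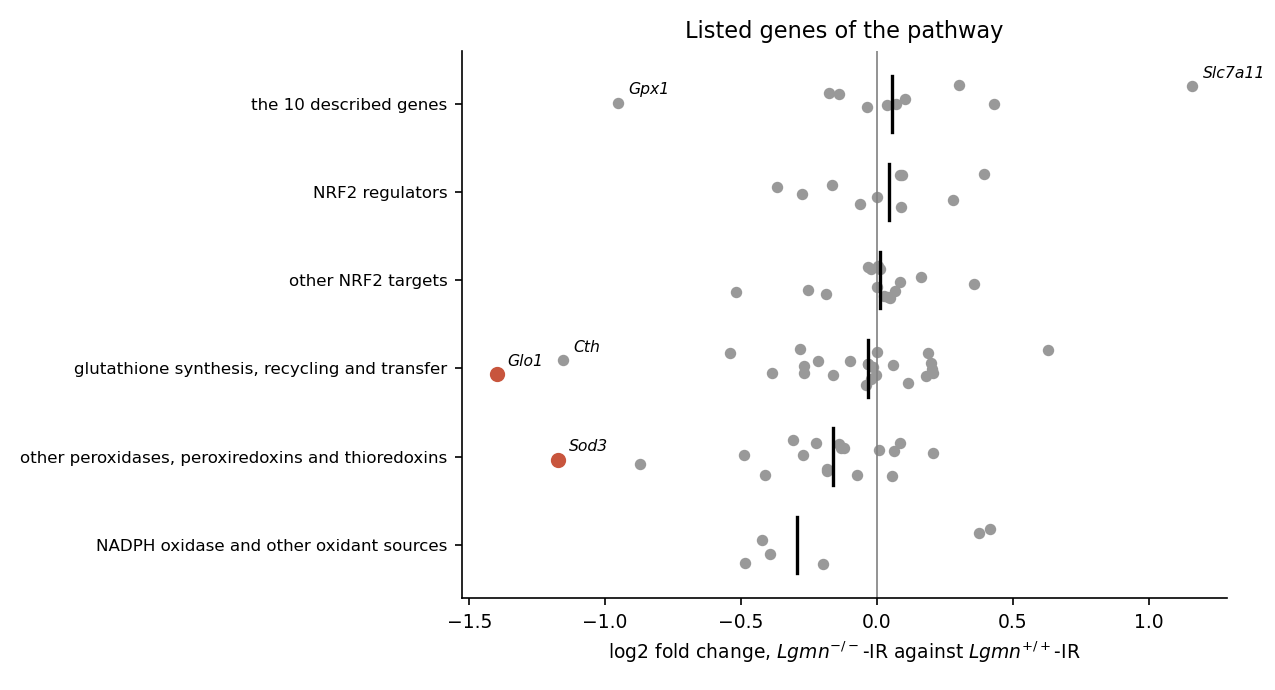
Log2 fold change of Lgmn-/--IR against Lgmn+/+-IR (x axis) of every tested gene of the 10 and of the 5 lists of other pathway genes (rows). Red points are called, grey points are not, and black bars are medians. *Glo1* (−1.40) and *Sod3* (−1.17) are the called genes.

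Among the 10 NRF2 regulators 0 were called and the median log2 fold change was 0.04. *Keap1*, the adaptor that marks NRF2 for degradation, had 89.0, 84.3 and 86.5 CPM in Lgmn+/+-IR against 76.8, 79.5 and 75.6 CPM in Lgmn-/--IR (log2 fold change −0.16, adjusted p = 0.322 from edgeR). *Nfe2l2*, which encodes NRF2 and was named after its values were seen, had 20.1, 20.8 and 21.6 CPM in Lgmn+/+-IR against 24.0, 22.9 and 28.9 CPM in Lgmn-/--IR (log2 fold change 0.28, adjusted p = 0.259). Neither gene overlapped between genotypes, and they stood in opposite directions. Of the 10 regulators, 1 was higher without overlap (*Nfe2l2*) and 2 were lower, where 12.4% and 13.3% of all genes were. Besides *Keap1*, the lower gene was *Mafk*, named after its values were seen (log2 fold change −0.37, adjusted p = 0.18 from edgeR).

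*Sqstm1*, which encodes the autophagy receptor p62 that binds KEAP1, had 305, 301 and 503 CPM in Lgmn+/+-IR against 467, 505 and 487 CPM in Lgmn-/--IR. Lgmn+/+-IR replicate 3 lay among the Lgmn-/--IR libraries, and the log2 fold change was 0.40 (adjusted p = 0.344 from edgeR). Without that library it was 0.68 (adjusted p = 0.0334), and on the log2(FPKM + 1) scale it was 0.09 (limma). The FPKM of *Sqstm1* overlapped, with 174, 177 and 206 in Lgmn+/+-IR against 190, 215 and 187 in Lgmn-/--IR. The length in kb that would turn its counts into the FPKM was 1.783, 1.735 and 2.438 in Lgmn+/+-IR against 2.438, 2.423 and 2.444 in Lgmn-/--IR. The units thus disagreed in Lgmn+/+-IR replicates 1 and 2, and the cause was not tested. *Rbx1*, a RING subunit of the same ubiquitin ligase, stood at 0.00 on the log2 scale (adjusted p = 0.996), and its sign depended on the scaling.

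Of 15 other NRF2 targets 0 were called, with a median of 0.01. The ferritin genes *Fth1* and *Ftl1*, which store iron, had log2 fold changes of 0.01 and 0.07, both of which turned negative on the FPKM scale, and that of *Fth1* also with total counts or upper quartile scaling. *Taldo1*, an enzyme of the pentose phosphate pathway, had −0.19 (adjusted p = 0.450 from edgeR). *Blvrb*, a biliverdin reductase named after its values were seen, had 14.5, 14.2 and 13.9 CPM in Lgmn+/+-IR against 9.52, 11 and 9.21 CPM in Lgmn-/--IR, without overlap (log2 fold change −0.52, adjusted p = 0.0641 from edgeR). With DESeq2 the adjusted p of *Blvrb* was 0.00736. *Blvra*, the other biliverdin reductase gene of the list, also named after its values were seen, went the other way without overlap. It had 11.2, 12.5 and 10.4 CPM in Lgmn+/+-IR against 13.7, 15.5 and 14.3 CPM in Lgmn-/--IR (log2 fold change 0.36, adjusted p = 0.178 from edgeR). Of the 15 targets, 1 was higher and 1 lower without overlap, where 12.4% and 13.3% of all genes were.

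Of 25 other genes of glutathione synthesis, recycling and transfer 1 was called, *Glo1*, and the list had a median of −0.03 with 9 above 0 and 16 below. The glutathione S-transferases *Gstm1*, *Gstp1* and *Gstm5* had log2 fold changes of −0.27 (adjusted p = 0.233 from edgeR), −0.16 (0.390) and 0.00 (0.994), and that of *Gstm5* changed sign with the scaling. Without overlap in CPM, 3 of the 25 were higher and 6 lower, where 12.4% and 13.3% of all genes were. *Ggt5*, *Cth* and *Glrx* were named after their values were seen. *Ggt5*, with the highest log2 fold change of the list, had 1.71, 1.73 and 1.45 CPM in Lgmn+/+-IR against 3.13, 2.43 and 2.01 CPM in Lgmn-/--IR (log2 fold change 0.63, adjusted p = 0.203 from edgeR). Its FPKM overlapped between genotypes. *Cth*, which makes cysteine from cystathionine, had 3.77, 5.32 and 4.57 CPM in Lgmn+/+-IR against 1.26, 3.45 and 1.41 CPM in Lgmn-/--IR (log2 fold change −1.16, adjusted p = 0.184), and −1.76 without Lgmn-/--IR replicate 2 (adjusted p = 0.0227). *Glrx*, a glutaredoxin, stood at −0.54 on the log2 scale (adjusted p = 0.0990), and DESeq2 and limma on the FPKM called it (adjusted p between 0.0279 and 0.0483).

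Of 18 tested peroxidases, peroxiredoxins, thioredoxins and related enzymes 1 was called, *Sod3*, with a median of −0.16 and 5 above 0 against 13 below. The peroxiredoxins *Prdx2* and *Prdx5* had log2 fold changes of −0.14 (adjusted p = 0.572 from edgeR) and −0.07 (0.789), and the selenoprotein gene *Selenow* had 0.06 (0.708). *Txnip*, the thioredoxin inhibitor, named after its values were seen, had 14.5, 20.5 and 22 CPM in Lgmn+/+-IR against 6.71, 16.6 and 7.79 CPM in Lgmn-/--IR (log2 fold change −0.87, adjusted p = 0.251), and −1.39 without Lgmn-/--IR replicate 2 (adjusted p = 0.0370).

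Among the 6 tested genes of oxidant sources 0 were called, with a median of −0.29 and 2 above 0 against 4 below. *Cyba* and *Ncf1*, subunits of the phagocyte NADPH oxidase, had log2 fold changes of −0.42 (adjusted p = 0.372 from edgeR) and −0.39 (0.258). *Ncf1* had 5.98, 6.47 and 4.77 CPM in Lgmn+/+-IR against 4.55, 4.48 and 4.08 CPM in Lgmn-/--IR, without overlap. Of the 6 genes, 1 was higher and 2 were lower without overlap, where 12.4% and 13.3% of all genes were. The 2 above 0, named after their values were seen, were *Rac2*, which encodes a small GTPase of the same oxidase, and *Xdh*, which encodes xanthine oxidoreductase. *Rac2* had 2.44, 2.27 and 2.35 CPM in Lgmn+/+-IR against 3.49, 2.46 and 3.21 CPM in Lgmn-/--IR, without overlap (log2 fold change 0.38, adjusted p = 0.344 from edgeR), and *Xdh* overlapped (log2 fold change 0.42, adjusted p = 0.533). *Cybb*, which encodes the catalytic subunit of the phagocyte NADPH oxidase, was below the filter with 2 to 12 counts in the libraries. Microglia are the brain cells in which this oxidase is best known. The summed level of 8 microglia markers was 229 to 254 CPM in Lgmn+/+-IR against 189 to 214 CPM in Lgmn-/--IR without overlap, and 0 of these 8 were called. The part of the microglia in these values was not tested.

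The other marker lists were summed in the same way. The sum of 6 oligodendrocyte markers was 3402 to 4124 CPM in Lgmn+/+-IR against 2243 to 2408 CPM in Lgmn-/--IR, and 5 of the 6 were called lower. Infiltrating leukocyte markers summed to 8.06 to 13.6 CPM in Lgmn+/+-IR against 2.07 to 4.23 CPM in Lgmn-/--IR, with *Cd3e*, *Ms4a1* and *Nkg7* at 0 counts in all libraries. This gap came from *Ly6c2*, which was called lower and had 6.73, 12.4 and 8.16 CPM in Lgmn+/+-IR against 0.968, 0.754 and 1.03 CPM in Lgmn-/--IR. Without *Ly6c2*, a sum taken after the values were seen, the other 8 markers gave 1.34, 1.26 and 1.67 CPM in Lgmn+/+-IR against 3.26, 1.59 and 1.05 CPM in Lgmn-/--IR, which overlapped. *Ptprc*, the only other leukocyte marker tested, was not called (log2 fold change 0.31, adjusted p = 0.614 from edgeR). The sums of the astrocyte, endothelial, neuron and choroid plexus lists overlapped between genotypes, and of their members *Aqp4* was called, higher in Lgmn-/--IR (log2 fold change 0.55, adjusted p = 0.0374 from edgeR). Of the 8 astrocyte markers 7 had log2 fold changes above 0 and 1 below, with a median of 0.23. In 4 of the 8 every Lgmn-/--IR library lay above every Lgmn+/+-IR library, where 12.4% of all genes did. *Slc1a2*, the 1 below 0, held most of the astrocyte sum, with 2292, 2463 and 2302 CPM in Lgmn+/+-IR against 2023, 2344 and 2405 CPM in Lgmn-/--IR. Neuron markers summed to 8841 to 11986 CPM and were present in every library, as the label of cortex requires. The part of these cell types in the values of *Glo1*, *Sod3* or the 10 genes was not tested.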

How the data were processed

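Values came from 3 Lgmn+/+-IR and 3 Lgmn-/--IR libraries. The authors used Trimmomatic 0.36 for filtering (also in the submitters' processing notes, which name GRCm38) and HISAT2 2.0 for mapping, and deposited raw counts per gene. FPKM were computed by the authors with StringTie 1.3.3b and deposited for the same genes. The read counter, strand setting and annotation are not given in the sources used here. Of 51826 gene IDs, 51633 were found in GENCODE M21, which gave positions.

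Counts were tested with edgeR 4.0.16 in R 4.3.3 (filterByExpr by genotype, TMM, a quasi-likelihood test of genotype alone, and Benjamini-Hochberg adjustment over 18345 genes). The study's methods name limma without its input, and limma 3.58.1 and DESeq2 1.42.0 were alternatives among the 18 run. FPKM were tested with limma on log2(FPKM + 1) and log2(FPKM + 0.1). The code was tested on simulated data. Reads carry no molecular identifiers, so counting error is only part of the error.

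Members and lists were chosen with earlier results of these data known. Named were all 10 genes, *Lgmn*, the 3 genes of highest mean FPKM in each of 5 pathway lists, called pathway genes and red cell markers. *Sepw1* was matched as *Selenow* through RefSeq synonyms, and 1 listed red cell marker was not used here. Values of 2 named genes are not reported here. Near copies were sought with BLAST 2.17.0+ (at least 200 bases at 90% identity).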

Additional observations from a re-analysis of the deposited data

How the results depend on the processing

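With 18 alternatives run, the counts of calls moved as follows. Of the 10 genes 0 were called, against 2 with DESeq2 (*Cat* and *Slc7a11*) and between 0 and 1 when libraries were left out in turn (1 without Lgmn-/--IR replicate 3, *Slc7a11*). Of the 74 listed pathway genes 2 were called, against 4 with DESeq2 and 1 to 4 with a library left out. All genes called were 611, against 1423 with DESeq2, 404 without a filter on low counts, 406 with at least 10 counts in every library and 223 to 500 with a library left out. With the replicate number as a block, 0 of the 10 genes, 1 pathway gene (*Glo1*) and 150 genes in all were called, and *Sod3* and *Lgmn* lost their calls. The deviations of same-numbered libraries correlated at −0.308, −0.045 and −0.0525. Libraries of different numbers were not compared in this way, so these values cannot decide whether same-numbered samples share a litter, cage or date.

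Over 33 genes, 540 of the values kept direction and side of the threshold, 10 gained a call, 11 lost one and 33 changed sign, all in genes close to 0 or in *Gclm*, and the cause was not tested. On the FPKM scales (+1, then +0.1) the log2 fold changes were −0.23 and −0.26 for *Gclm*, −0.0035 and −0.0035 for *Sod1*, −0.047 and −0.048 for *Rbx1*, −0.025 and −0.025 for *Fth1*, and −0.0066 and −0.0068 for *Ftl1*. With total counts only, *Rbx1* had −0.030 and *Fth1* −0.026, and with upper quartile scaling −0.020 and −0.013. *Rbx1* had −0.0046 with limma-voom and −0.0051 with the block. *Gstm5* had 0.0068 with DESeq2 and with its size factors in edgeR, 3.8e-05 with limma-voom and 0.0060 without a filter. With a library left out, the values ran from −0.026 to 0.273 for *Hmox1*, −0.12 to 0.043 for *Nqo1*, −0.0069 to 0.071 for *Sod1*, −0.082 to 0.095 for *Rbx1*, −0.064 to 0.11 for *Fth1*, −0.13 to 0.25 for *Ftl1* and −0.041 to 0.070 for *Gstm5*.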
